A study of Rattus norvegicus with 12 samples.

Results

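Neonatal rat ventricular myocytes (NRVM) that received phenylephrine (PE) together with the kinase inhibitor THZ1 were compared with untreated NRVM by RNA-seq, to describe how far the co-treated state lay from baseline. The 6 libraries of these groups, 3 labelled PE + THZ1 and 3 labelled baseline, were taken by their labels from 12 libraries in all, and the 3 libraries with PE and the 3 with THZ1 alone served to sort the genes. NRVM were primary cells from the heart ventricles of Sprague Dawley pups, postnatal day 2 to 3, and the labels name no allele or transgene. The baseline group received vehicle, PE was given at 100 µM and THZ1 at 10 nM, and the labels and methods give 48 h of treatment for every group, with inhibitor or vehicle added ahead of PE. The column names of the 6 libraries with PE say 24 h instead, and the difference could not be settled from the files.

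NRVM are used as a culture model of stress-induced growth of heart muscle cells. PE is an agonist of alpha-1 adrenergic receptors, and in these cells it drives hypertrophy with reactivation of fetal genes. THZ1 is a covalent inhibitor of the cyclin-dependent kinases CDK7, CDK12 and CDK13, which phosphorylate the C-terminal domain of RNA polymerase II. CDK7 acts as part of TFIIH around initiation and promoter escape, and CDK12 and CDK13 act during elongation, where genes with short-lived transcripts or long bodies are known to be sensitive to their loss.

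The cells were preplated and exposed to BrdU to limit nonmyocytes, and neither the labels nor the methods say whether the 3 libraries of a group came from separate preparations, so the tests measure only the spread between these libraries, which may be technical. The deposited values are counts that each library's size factor had divided, and whole reads were recovered from them, 30458862 to 45885754 per library. The table holds Ensembl identifiers and no symbols, and 0 of the identifiers matched the annotation at hand, so the ventricular label was not checked against marker genes and pathways were not counted. In bulk RNA, a change in the number of cells of a type and a change in RNA per cell cannot be told apart. One library, baseline replicate 2, stood apart: the chi-square per degree of freedom between libraries was 53.6 and 57.6 against the other baseline replicates, compared with 6.21 between those, and 2.11 to 8.89 within the other groups. Its distance to the mean of the PE libraries was 55.5, compared with 68.1 and 65.6 for baseline replicates 1 and 3 (Euclidean distance on log2 values over the genes tested). This library also lay nearer to the mean of PE + THZ1, at 56.5 compared with 63.8 and 62.6. To the mean of THZ1 alone the distances were 57.5 compared with 61.2 and 60.7. The counts of calls and classes and the log2 changes of the single genes described were recomputed without it, while other values, such as those by expression range, share or cluster, were not.

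PE + THZ1 did not return the transcriptome to baseline. Tested were the 14312 genes whose normalized counts averaged 10 or more over the 12 libraries. Of these, 7739 (54.1%) differed between PE + THZ1 and baseline at an adjusted p of 0.05 (limma, Benjamini-Hochberg), with 3822 higher (26.7%) and 3917 lower (27.4%). Most of these changes were small, with a median size of 0.38 on the log2 scale among changed genes and a median standard error of 0.07. A change of at least 1.25-fold was found for 4573 genes, at least 1.5-fold for 2080, at least 2-fold for 693 (4.84%) and at least 4-fold for 69. The larger the change, the more often it was a fall: 2051 higher and 2522 lower at 1.25-fold, 211 and 482 at 2-fold, and 12 and 57 at 4-fold. With equal library totals the numbers were 340 and 324 at 2-fold and 18 and 37 at 4-fold, so the excess of falls was kept only at 4-fold. All fold changes are on the scale of log2(normalized count + 1), which understates the change of low genes.

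The balance of rises and falls depended on the scaling of the libraries. The summed normalized counts went from 37972984 ± 1917353 at baseline (SD, n = 3) to 33763048 ± 587361 with PE + THZ1, compared with 40369779 ± 130940 with PE and 34184256 ± 470200 with THZ1 alone. When every library was scaled to an equal total, the median log2 change of all genes moved from 0.004 to 0.172, and 6299 genes were called higher and 2181 lower (74.3% higher, compared with 49.4% under the deposited size factors). With TMM scaling 47.9% were higher. A bulk library without spiked-in RNA does not give the total RNA per cell, so all directions are relative to the other genes of the library. Of the 7739 changed genes, 5870 were called in the same direction with the deposited size factors, equal totals and TMM. Without baseline replicate 2, 8402 genes (58.7%) were called, 7320 of them shared with the 7739.

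The changes reached across the range of expression. Among genes with a mean of 10 to 100 normalized counts, 33% were changed, and 151 rose and 240 fell at least 2-fold. The share was 56.1% at 100 to 1000, 63.3% at 1000 to 10000 and 69% among the 523 genes above 10000, while the median standard error went from 0.24 in the lowest range to 0.05 in the highest. Low genes therefore needed a larger change to be called. Among the 523 most highly counted genes, 147 were higher and 214 lower, and 1 rose and 14 fell at least 2-fold. With equal totals, 255 of the 523 were higher and 129 lower, so the excess of falls among them was found with the deposited size factors and TMM (141 higher and 219 lower) and turned with equal totals.

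**Figure D1:**
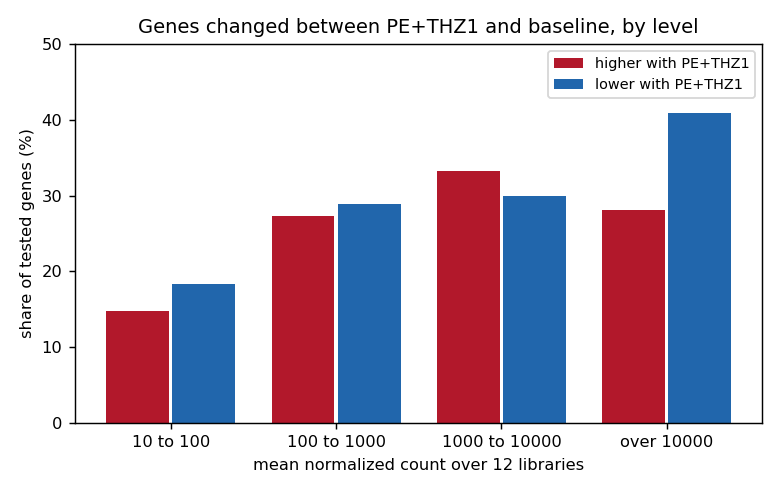
Share of tested genes (%) called higher (red bars) or lower (blue bars) with PE + THZ1 than at baseline, by the mean normalized count over 12 libraries. The share called in total climbs from 33% in the lowest range to 69% in the highest, where 214 genes were lower and 147 higher under the deposited size factors (129 and 255 with equal totals).

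The genes with the highest counts fell. The 10 genes with the highest mean were each called lower with PE + THZ1, with a median log2 change of -0.72 and a range from -0.86 to -0.45, and all 10 were also called lower with equal totals (median -0.55) and TMM (median -0.73). They held 21.6%, 15.9% and 21.5% of the normalized counts of baseline replicates 1 to 3, and 13.5%, 13.6% and 15.2% with PE + THZ1, so the groups did not overlap, although the lowest baseline library, replicate 2, lay close to the highest co-treated one. The means were 19.6 ± 3.27% and 14.1 ± 0.958% (SD, n = 3; exact permutation test, two-sided, p = 0.1, the smallest that 3 against 3 can give). With PE they held 16.5 ± 0.301%, and with THZ1 alone 16 ± 0.815%. Among the 100 genes with the highest means, 52 were lower, 22 higher and 26 without a call, compared with 35, 38 and 27 with equal totals.

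The co-treated libraries lay nearer to THZ1 alone than to baseline or PE. The distance of the 3 PE + THZ1 libraries to the mean of the THZ1 libraries was 36.1, 36.5 and 39.9, compared with 57.3 to 61.4 to the baseline mean and 71.6 to 76.6 to the PE mean. In the same fit, 3477 genes (24.3%) differed between PE + THZ1 and THZ1 alone, of which 1809 were higher (12.6%) and 1668 lower (11.7%), with 160 at least 2-fold (1.12%). The number depended on the libraries in the fit. It was 4436 without baseline replicate 2 and 4715 with only the groups compared. Both were still below the numbers against baseline (8402 and 6859) and against PE (9412 and 9352) under the same settings. Against PE, 8832 genes (61.7%) differed, 4355 higher (30.4%) and 4477 lower (31.3%), with 1239 at least 2-fold (8.66%). Equal totals gave 7697 higher and 2271 lower against PE. The median absolute log2 change of all genes was 0.13 against THZ1 alone, 0.23 against baseline and 0.30 against PE. Cells given both compounds thus differed from cells given THZ1 alone for fewer genes, and by smaller amounts, than from the other groups.

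To describe what kind of difference remained, each changed gene was placed by its calls with PE and with THZ1 alone, each against the same 3 baseline libraries. PE changed 7899 genes (55.2%), of which 4304 were raised (30.1%) and 3595 lowered (25.1%), with 778 at least 2-fold (5.44%); with equal totals 2803 were raised and 4690 lowered. THZ1 alone changed 7426 (51.9%), of which 3693 were higher (25.8%) and 3733 lower (26.1%), with 658 at least 2-fold (4.6%), compared with 5922 and 2241 under equal totals. A gene changed by PE and still changed the same way with PE + THZ1 is called not restored, and one changed by PE and changed the opposite way with PE + THZ1 is called past baseline. A gene called with PE + THZ1 and with neither compound alone is called new to the combination. The 3 comparisons share their baseline libraries, so a deviation of the baseline mean moves all of them the same way, and counts over these classes describe how the calls fell and carry no test.

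By these calls, 3033 genes were not restored (21.2% of the genes tested and 39.2% of those changed with PE + THZ1), 1723 lay past baseline (12% and 22.3%) and 760 were new to the combination (5.31% and 9.82%). A further 2209 genes (15.4% and 28.5%) were changed in the same direction with THZ1 alone and were not called with PE. The remaining 14 were called in the opposite direction with THZ1 alone. Seen from the side of PE, 3033 of the 7899 PE-changed genes (38.4%) were not restored, 1723 (21.8%) went past baseline and 3143 (39.8%) had no call against baseline. No call is not a return to baseline: for 2076 of the 3143 (66.1%) the 95% interval of the change lay within 1.25-fold of baseline in either direction, and for the rest it did not. The interval reached a median of 0.16 to either side on the log2 scale over all genes.

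**Figure D2:**
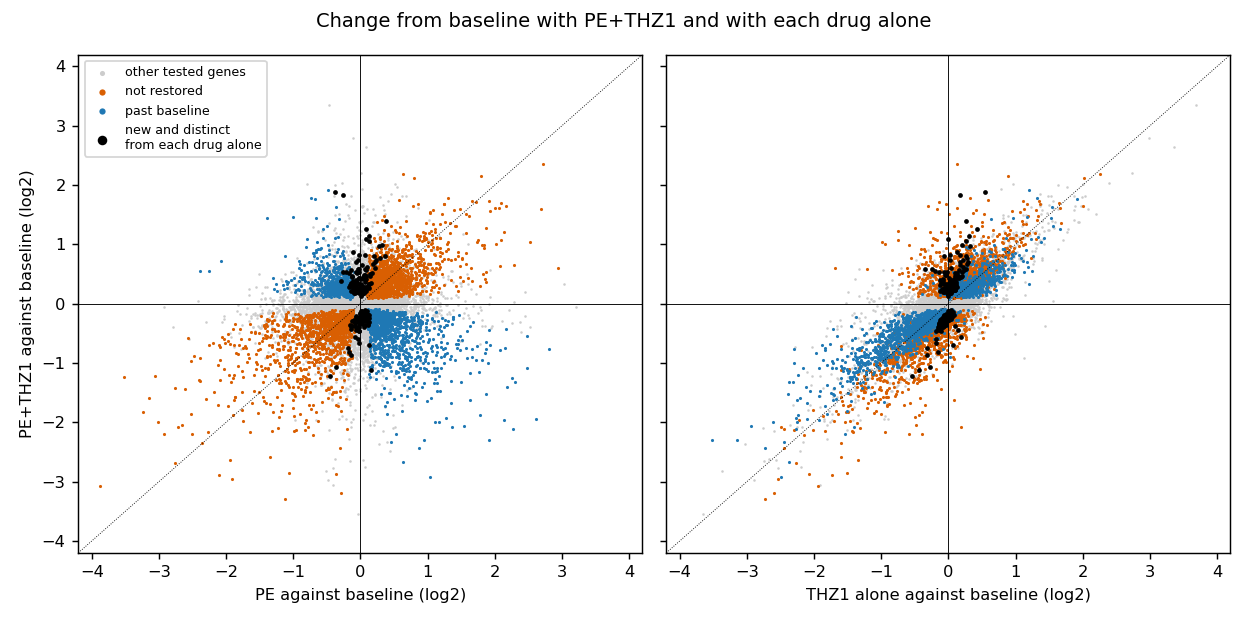
Log2 change with PE + THZ1 against baseline (vertical axis) plotted against the log2 change with PE (left) and with THZ1 alone (right), 1 point per gene, for 14312 genes. Genes not restored (orange, 3033) lie in the quadrants where PE and PE + THZ1 have the same sign, genes past baseline (blue, 1723) in the opposite quadrants, and the 190 genes that were new and differed from each compound (black) lie near 0 on both horizontal axes; these positions follow from how the classes were made, and both axes share the baseline libraries.

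Genes not restored were 1678 higher and 1355 lower than baseline. Among those higher, the median log2 change was 0.36 with PE + THZ1 and 0.35 with PE. Among those lower it was -0.44 and -0.46. Close sizes partly follow from the choice, as a gene had to be called the same way in both comparisons. Over all genes that PE raised, the medians were 0.36 with PE and 0.08 with PE + THZ1. Over all genes that PE lowered, they were -0.42 and -0.11. These medians were not recomputed with equal totals. Against PE itself, 780 of the 3033 had moved toward baseline, 656 had moved farther from it, and 1597 had no call. This split holds under the deposited size factors and was not recomputed with equal totals. Over all genes, the calls against PE went from 4355 higher and 4477 lower to 7697 and 2271 with equal totals. THZ1 alone changed 1813 of the 3033 genes in the same direction, 150 in the opposite direction, and 1070 without a call. The group therefore holds genes with different histories, which are taken in turn.

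The medians and counts of this paragraph hold under the deposited size factors and were not recomputed with equal totals. With equal totals most genes called against PE were higher, so moves toward baseline among the higher genes may not persist. Where THZ1 alone moved a gene the same way as PE, few genes had moved back toward baseline. For the 1039 such genes that were higher, the median log2 change was 0.31 with PE, 0.32 with THZ1 alone and 0.38 with both, and 115 had moved toward baseline against PE while 325 had moved farther. For the 774 that were lower, the medians were -0.44, -0.42 and -0.55, with 113 toward baseline and 271 farther. Where THZ1 alone gave no call, more genes moved toward baseline than away: 202 and 36 of the 533 higher genes (medians 0.42 with PE, 0.06 with THZ1 alone and 0.29 with both), and 234 and 18 of the 537 lower genes (-0.49, -0.07 and -0.31). Where THZ1 alone moved a gene against PE, the median co-treated level lay between the medians with each. The 106 higher genes of this kind had medians of 0.80 with PE, -0.32 with THZ1 alone and 0.37 with both, and 77 had moved toward baseline; for the 44 lower genes the medians were -1.09, 0.25 and -0.25, and 39 had moved toward baseline.

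The interaction term asks whether the change with both compounds differs from the sum of the log2 changes with each, and it was called for 4603 genes overall (32.2%). Among the genes not restored it was called for 1393, and for 1344 of these its sign was opposite to the change, that is, the combination gave less than the sum. Among the genes past baseline it was called for 1123, and for 1120 its sign was that of the change. The classes were made from terms of the same fit, so these counts are descriptions under the deposited size factors. The sign of the interaction depended on the scaling. Over all genes, calls were positive for 1987 and negative for 2616, compared with 2940 and 1074 with equal totals.

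Among genes that averaged 100 or more normalized counts and whose groups did not overlap, the one with the largest rise was in the class not restored. ENSRNOG00000022637 had 6669, 8593 and 7989 normalized counts in baseline replicates 1 to 3 and 35309, 34266 and 30719 with PE + THZ1, with 14187, 13379 and 12601 with PE and 33376, 29887 and 30425 with THZ1 alone. The co-treated libraries lay far above baseline and above all PE libraries, and they overlapped with those of THZ1 alone. The means were 7750 ± 984 at baseline and 33431 ± 2406 with PE + THZ1 (SD, n = 3), a log2 change of 2.11 (SE 0.08; limma adjusted p = 1.4e-12). The log2 change was 0.79 with PE (adjusted p = 1.6e-07 by limma) and 2.02 with THZ1 alone (limma adjusted p = 2.8e-12). PE + THZ1 exceeded PE by 1.32 (limma adjusted p = 1.2e-10) and differed from THZ1 alone by 0.10 (limma adjusted p = 0.41).

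A gene of the same class that was lower, ENSRNOG00000021402, had 526, 397 and 534 normalized counts at baseline and 47.3, 54.8 and 43.6 with PE + THZ1. It had 247, 219 and 201 with PE and 63.8, 73.6 and 77.8 with THZ1 alone. The 4 groups did not overlap, and the order from high to low was baseline, PE, THZ1 alone and both. The mean fell from 486 ± 76.5 to 48.6 ± 5.7 (SD, n = 3), a log2 change of -3.29 (SE 0.13; limma adjusted p = 4.8e-12), compared with -1.12 for PE (limma adjusted p = 1.8e-06) and -2.73 for THZ1 alone (limma adjusted p = 3.9e-11). PE + THZ1 was lower than THZ1 alone by a log2 difference of -0.55 (limma adjusted p = 0.0053).

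Genes past baseline numbered 594 that PE had lowered and that were higher with PE + THZ1, and 1129 that PE had raised and that were lower. The second set had a median log2 change of 0.39 with PE, -0.49 with THZ1 alone and -0.40 with both; the first had -0.32, 0.34 and 0.31. THZ1 alone changed 1505 of the 1723 in the same direction as the combination, 206 had no call with THZ1 alone, and 12 went the other way. The medians with both compounds were therefore close to those with THZ1 alone, although the distance covered from PE was larger, with median log2 differences of -0.83 and 0.66 between PE + THZ1 and PE. The split between the directions turned with the scaling: with equal totals, 2118 genes lay past baseline, of which 1637 were higher and 481 lower, and with TMM 1710, of which 635 were higher and 1075 lower. Of the 1723, 1057 were placed past baseline in the same direction by all 3 scalings.

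Genes past baseline were ranked if their mean was 100 or more and their co-treated libraries stayed apart from baseline. The one with the largest fall had 918, 1098 and 1017 normalized counts at baseline and 1970, 1995 and 2227 with PE. With THZ1 alone it had 174, 184 and 175, and with PE + THZ1 127, 133 and 139. PE doubled it, and with both compounds it was lower than in any other group. The mean went from 1011 ± 90.1 at baseline to 133 ± 6.02 (SD, n = 3), a log2 change of -2.91 (SE 0.07; limma adjusted p = 2.2e-14), compared with 1.03 for PE (limma adjusted p = 4.2e-09) and -2.50 for THZ1 alone. Between PE + THZ1 and THZ1 alone the log2 difference was -0.42 (limma adjusted p = 0.00053), so PE, which raised this gene on its own, went with a lower level in the presence of THZ1.

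Under the same limit, the gene with the largest rise past baseline was a low one, with 60.2, 85.2 and 48.9 normalized counts at baseline, 51.3, 44.6 and 39.2 with PE, 126, 161 and 154 with THZ1 alone and 205, 274 and 251 with PE + THZ1. Its rise over baseline was larger than the spread (log2 change 1.92, SE 0.18; limma adjusted p = 1e-07). Its fall with PE was not firm. The baseline and PE libraries overlapped, the log2 change was -0.49 (limma adjusted p = 0.028), and without baseline replicate 2, the highest of the baseline libraries, it was -0.27 (limma adjusted p = 0.15); edgeR gave an adjusted p of 0.06.

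**Figure D3:**
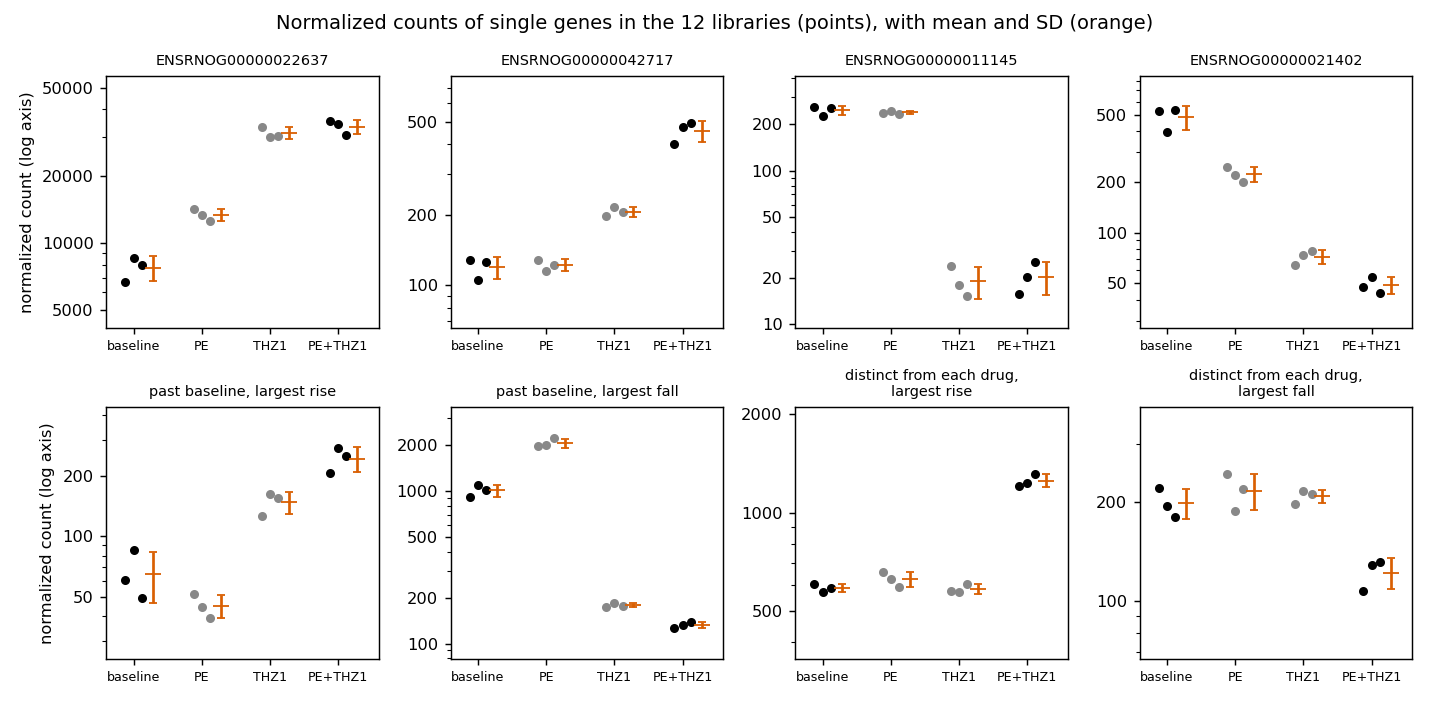
Normalized counts (log axis, a scale of its own in each panel) of 8 genes in the 12 libraries, with points for replicates 1 to 3 and the mean ± SD in orange beside them, black for baseline and PE + THZ1 and grey for PE and THZ1 alone. The upper row holds the 2 genes with the largest rises and the 2 with the largest falls that are named in the text. The lower row holds the genes with the largest changes past baseline and among those distinct from each compound. All were taken from genes with a mean of at least 100. Only genes whose black points stayed apart were eligible, so the separation of the black groups in all 8 panels follows from the choice.

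The genes PE moved most were followed on their own. PE raised 346 genes and lowered 432 at least 2-fold (5.44% of the genes tested for both). Of the 346 raised, 123 (35.5%) were still higher than baseline with PE + THZ1, 51 of them still at least 2-fold, 113 (32.7%) were lower than baseline, 36 of them at least 2-fold, and 110 (31.8%) had no call. Of the 432 lowered, 230 (53.2%) were still lower, 93 of them at least 2-fold, 16 (3.7%) were higher than baseline, 1 of them at least 2-fold, and 186 (43.1%) had no call. Genes PE raised strongly were thus found past baseline more often than genes PE lowered strongly, under the deposited size factors (113 of 346 and 16 of 432) as well as with equal totals (75 of 285 and 42 of 536) and TMM (33% and 4.12%). The larger share not restored among lowered genes did not persist across scalings, being 37.9% of raised and 39.7% of lowered genes with equal totals.

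Among these strongly changed genes, a missing call says little. The 95% interval lay within 1.25-fold of baseline for 23 of the 110 genes without a call that PE had raised, and for 27 of the 186 that it had lowered. The baseline library that stood apart mattered here. Without baseline replicate 2, PE raised 455 genes at least 2-fold, of which 202 (44.4%) were not restored, 89 of them still at least 2-fold, and 120 (26.4%) lay past baseline; it lowered 524, of which 318 (60.7%) were not restored and 15 (2.86%) lay past baseline.

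**Figure D4:**
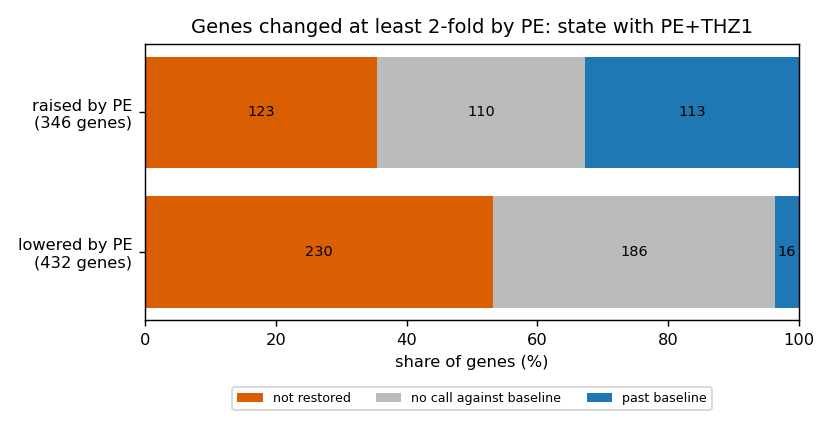
Genes changed at least 2-fold by PE, as the share (%) that was not restored (orange), had no call against baseline (grey) or lay past baseline (blue) with PE + THZ1; numbers in the bars are genes. Of the 346 genes raised by PE, 113 lay past baseline, compared with 16 of the 432 lowered.

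The 51 genes raised at least 2-fold by PE and still raised at least 2-fold with PE + THZ1 mostly had no call between PE and PE + THZ1. Their median log2 change was 1.33 with PE, 1.34 with both and 0.80 with THZ1 alone. Against PE, 10 had moved toward baseline, 3 farther from it, and 38 had no call. THZ1 alone raised 30 of them, lowered 6 and gave no call for 15. For the 93 genes lowered at least 2-fold under both conditions, the medians were -1.55 with PE, -1.47 with both and -0.80 with THZ1 alone, 35 had moved toward baseline and 11 farther, and THZ1 alone lowered 67 and gave no call for 26. The 36 genes raised at least 2-fold by PE and at least 2-fold below baseline with both compounds were all lowered by THZ1 alone as well, with medians of 1.31 with PE, -1.99 with THZ1 alone and -1.37 with both. The limit on both changes favours similar medians and few calls against PE among the 51 and 93 genes. With the limit on PE only, 68 of the 123 genes raised and not restored had moved toward baseline (medians 1.26 with PE and 0.91 with both). Of the 230 lowered and not restored, 152 had (-1.38 and -0.87). These counts hold under the deposited size factors.

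Most genes new to the combination changed by small amounts, as did most genes of the other classes. Of the 760, 392 were higher and 368 lower, and 44 changed at least 2-fold, compared with 693 of the 7739 genes changed with PE + THZ1. Those 693 were 4.84% of all 14312 genes tested, which include genes without a call. With equal totals 827 genes were placed here, 655 higher and 172 lower, and 170 of the 760 were found by all 3 scalings. Median log2 changes were 0.32 with both compounds, 0.03 with PE and 0.12 with THZ1 alone for those higher, and -0.27, -0.05 and -0.11 for those lower. Being called in one comparison and not in another does not show a difference between them, so the call of PE + THZ1 against PE and against THZ1 alone was required as well. This left 190 genes (1.33% of the genes tested), 115 higher and 75 lower. For the rest of the 760, a difference of the combination from at least one of the compounds was not shown.

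The 190 distinct genes lay close to baseline with each compound and moved with both. Their median absolute log2 change was 0.07 with PE, 0.08 with THZ1 alone and 0.31 with PE + THZ1. The largest change with PE was 0.45 and with THZ1 alone 0.55. In 75 of the 190 both single-compound changes pointed in the direction of the combination, in 37 neither did, and in all 190 their sum was smaller than the change with both. Small changes with each compound and a larger change with both largely follow from how the genes were chosen. The interaction term itself was called for 96 of them, 54 higher and 42 lower. For the others, a change beyond the sum was not shown. In 185 of the 190 (97.4%) the 3 PE + THZ1 libraries lay above or below all 9 others, compared with 1630 of all 14312 genes (11.4%); the first share follows from how the genes were chosen.

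Few of these genes changed by much, and the membership was sensitive. Of the 190, 10 changed at least 2-fold, 7 higher and 3 lower, compared with 693 of the 7739 genes changed with PE + THZ1. Those 693 were 4.84% of all 14312 genes tested, which include genes without a call. A mean of at least 100 was found for 2 of the 10. With equal totals 192 genes qualified, 168 higher and 24 lower, and 44 of the 190 were found by all 3 scalings, as against 145 by all 4 tests and 41 in every set that left out 1 library. Those found under all scalings, tests and sets numbered 11, compared with 1450 of the 3033 genes not restored and 831 of the 1723 past baseline.

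Distinct genes were likewise ranked if their mean was 100 or more and their co-treated libraries stayed apart from baseline. The one with the largest rise had 603, 569 and 586 normalized counts at baseline and 658, 624 and 591 with PE. It had 573, 570 and 605 with THZ1 alone and 1208, 1232 and 1317 with PE + THZ1. The first 3 groups overlapped, and every co-treated library lay far above them. The mean went from 586 ± 17.2 at baseline to 1252 ± 56.9 (SD, n = 3), a log2 change of 1.09 (SE 0.06; limma adjusted p = 1.4e-10). The change was 0.09 with PE (limma adjusted p = 0.21) and -0.01 with THZ1 alone (limma adjusted p = 0.92), and the interaction was 1.01 (limma adjusted p = 2.5e-07). The rise was 1.26 with equal totals, 1.07 without baseline replicate 2 and 1.09 by edgeR.

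Under the same limit on the mean, the distinct gene with the largest fall had 220, 194 and 180 normalized counts at baseline, 242, 188 and 219 with PE, 197, 216 and 211 with THZ1 alone and 107, 129 and 131 with both. Again the first 3 groups overlapped and the co-treated libraries lay apart, below them. The log2 change was -0.69 (SE 0.11; limma adjusted p = 6.3e-05), compared with 0.12 for PE (limma adjusted p = 0.38) and 0.07 for THZ1 alone (limma adjusted p = 0.62). The interaction was -0.89 (limma adjusted p = 0.00044).

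Other genes changed with THZ1 whether or not PE was present. The 2209 genes called in the same direction with PE + THZ1 and with THZ1 alone, and not with PE, were 1149 higher and 1060 lower (2507 and 572 with equal totals), with median log2 changes of 0.36 and 0.37 for the higher genes and -0.48 and -0.45 for the lower. ENSRNOG00000011145 had 259, 226 and 256 normalized counts at baseline, 239, 246 and 234 with PE, 23.9, 18 and 15.2 with THZ1 alone and 15.8, 20.2 and 25.4 with both. Its libraries formed a high pair of groups without THZ1 and a low pair with it. The log2 change was -3.55 with both compounds (SE 0.18; limma adjusted p = 4.9e-11) and -3.65 with THZ1 alone, and their difference was 0.10 (limma adjusted p = 0.75).

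ENSRNOG00000042717, placed in the same class, behaved differently when PE was present. It had 128, 105 and 125 normalized counts at baseline, 128, 115 and 122 with PE, 197, 216 and 206 with THZ1 alone and 402, 475 and 492 with PE + THZ1. The PE libraries overlapped with baseline, those with THZ1 alone lay above both, and the co-treated libraries lay above all others. The mean rose from 119 ± 12.7 to 456 ± 48.1 (SD, n = 3), a log2 change of 1.93 (SE 0.10; limma adjusted p = 1.3e-10), compared with 0.79 for THZ1 alone (limma adjusted p = 6.3e-06) and 0.03 for PE (limma adjusted p = 0.82). PE + THZ1 exceeded THZ1 alone by 1.14 (limma adjusted p = 5.1e-07).

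The share of all normalized counts held by each class was followed in every library. Genes not restored and higher held 10.4%, 12.1% and 10.4% in baseline replicates 1 to 3 and 15.4%, 15.4% and 14.9% with PE + THZ1, above the 13.6 ± 0.0999% with PE (SD, n = 3). Those lower held 12.8 ± 0.824% at baseline, 8.89 ± 0.136% with PE and 10.3 ± 0.1% with both. The genes that PE raised and that lay below baseline with both compounds held 14.1 ± 1.16% at baseline, 20.6 ± 0.227% with PE, 10.4 ± 0.146% with THZ1 alone and 11.1 ± 0.202% with both. The largest of these shares, that with PE, was thus followed by a share below baseline in the co-treated cells. The genes past baseline and higher held 4.8 ± 0.156%, 3.6 ± 0.0688%, 6.36 ± 0.0196% and 6.44 ± 0.187% in the same order. The 115 distinct genes that rose held 0.541 ± 0.0388% at baseline and 0.74 ± 0.0114% with PE + THZ1. The classes were chosen on these values, and the shares are given without a test.

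**Figure D5:**
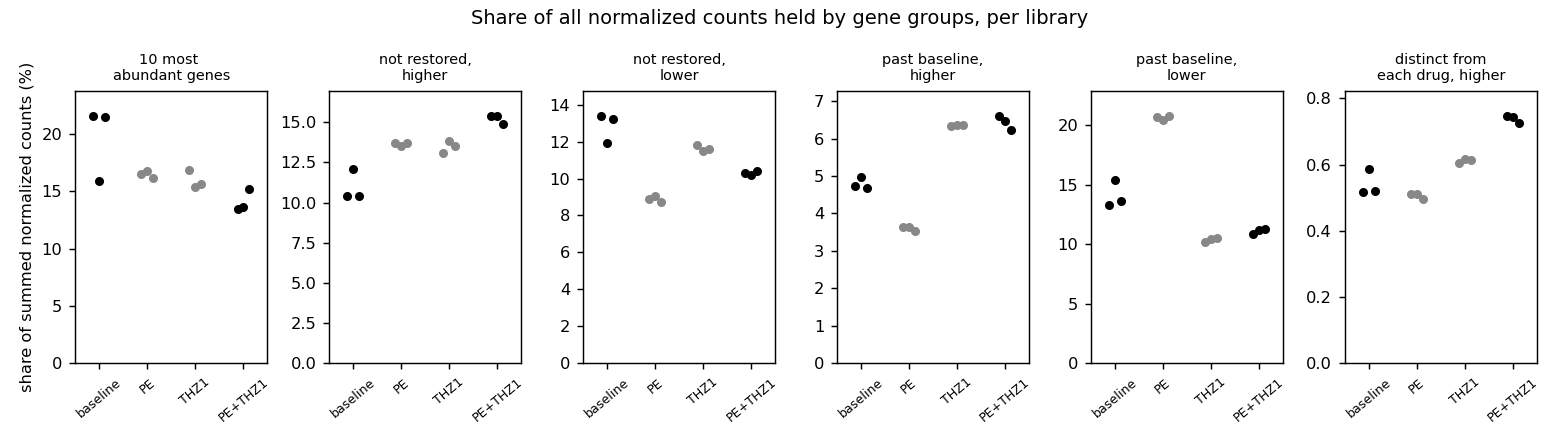
Share (%) of all normalized counts held by 6 gene groups in each of the 12 libraries (points, replicates 1 to 3 from left to right), black for baseline and PE + THZ1 and grey for PE and THZ1 alone, each panel on an axis of its own that starts at 0. The genes that PE raised and that were lower than baseline with both compounds held 20.6% on average with PE and 11.1% with PE + THZ1, and in the panels for the 10 most abundant genes and for the first 2 classes baseline replicate 2 lies toward the other groups.

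The table also assigns each gene to 1 of 6 clusters, made from these same libraries, which are given here as the table numbers them, with calls under the deposited size factors. In cluster 3, where the average gene was highest at baseline, 1765 of 2195 tested genes (80.4%) were lower with PE + THZ1. In cluster 4, where the average was high with PE and with both compounds, 930 of 1331 (69.9%) were higher and 5 lower. Cluster 1, high with THZ1 with or without PE, had 2496 of 4589 higher (54.4%), and cluster 2, high with PE, had 1415 of 3534 lower (40%). Cluster 5, lowest with PE, and cluster 6 held fewer changed genes, at 27.5% and 20.7%. Of the 1723 genes past baseline, 1084 (62.9%) were in cluster 2, which held 24.7% of the genes tested. Of the genes not restored, 26.6% were in cluster 3 and 25.3% in cluster 4, which held 15.3% and 9.3% of the genes tested. Cluster 1, with 32.1% of the genes tested, held 21% of those not restored and 38.9% of the 190 distinct genes.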

How the data were processed

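RNA-seq libraries of NRVM (KAPA mRNA HyperPrep) were aligned by the authors to rn5 with TopHat2 2.1.1, counted with htseq-count in its reverse-stranded mode, and scaled in DESeq2 with all rat samples in 1 run. The deposited values are this signal, each library's reads per gene over its size factor; 100% of values gave whole reads within 0.01 read. All 15920 genes had at least 1 read in every library. Genes without reads in some library were therefore absent, so a gene switched fully on or off between groups could not be seen here. Genes with a mean of at least 10 (14312) were fitted with limma 3.58.1 (R 4.3.3) on log2(value + 1), with all 12 libraries, a trended prior variance and two-sided tests, with p-values adjusted by Benjamini-Hochberg and a threshold of 0.05. As the deposited values are normalized, limma was the main test, and edgeR 4.0.16 and DESeq2 1.42.0 were run on recovered reads as alternatives, with other pseudocounts, minimum means, scalings and fits, and with each library left out. The fit was also run on simulated counts in which few genes changed, the size factors were known and no library stood apart. That run does not cover the wide change, the shifted totals or the baseline library that stood apart here.

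The precision is set by 3 libraries per group and depths of 30458862 to 45885754 reads. Genes to be named were those with the largest rise and fall, a mean of at least 100 and no overlap between groups; as 0 of the identifiers were found among 47357 annotation entries, this was limited to 2 identifiers in each direction, with the extremes of the classes left without names. Lists of pathway and marker genes could not be applied for the same reason. The comparison, classes and lists were chosen with earlier results of these data known. A column of cluster numbers by the authors was used as a category only. The genome build rn5 was not used for coordinates here.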

Additional observations from a re-analysis of the deposited data

Results flagged for a closer look

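The effect of THZ1 differed with and without PE for 3 of the 4 named genes, by the interaction term of limma over all genes. For ENSRNOG00000042717 the effect of THZ1 was larger with PE by 1.11 on the log2 scale (limma adjusted p = 2.4e-05), with all 3 co-treated libraries above all 3 libraries of THZ1 alone. The effect for ENSRNOG00000022637 was smaller with PE, with a log2 difference of -0.70 (limma adjusted p = 0.00013). For ENSRNOG00000021402 the difference was 0.56 (limma adjusted p = 0.03), that is, THZ1 lowered this gene by less in the presence of PE, which itself had lowered it. The fourth gene, ENSRNOG00000011145, had a difference of 0.13 (limma adjusted p = 0.71). Over all genes the interaction was called for 4603 (32.2%), positive for 1987 and negative for 2616, compared with 2940 and 1074 with equal totals.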

How the results depend on the processing

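The number of changed genes and the numbers of genes not restored and past baseline stayed within 1.5 times the reported counts under every pseudocount, minimum mean, scaling, test and omitted library, and the 4 named genes kept direction and call throughout. A few settings moved a count further. With libraries scaled to equal totals, 6299 genes were higher and 2181 lower. With a minimum mean of 50, 396 genes changed at least 2-fold, as fewer low genes were tested. With only the groups compared in each fit, 339 genes were new and distinct from each compound (190 as reported; the cause was not tested). Requiring an absolute log2 change of at least 1 both for PE and for PE + THZ1 against baseline left 144 genes not restored and 37 past baseline. With this limit on only the change between PE + THZ1 and baseline, 44 genes were new and 10 distinct. Leaving out 1 library gave 6743 to 8402 changed genes, 2331 to 4072 not restored, 1509 to 1685 past baseline, 568 to 958 new and 129 to 230 distinct.

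Libraries of the same number deviated together weakly at most. The mean correlation was 0.033 over 18 pairs, from -0.113 to 0.173, compared with -0.0168 over the 36 other pairs between groups. Of the 12 libraries, 8 correlated best with their own number, a hint from the data only. These values do not settle whether the numbers are pairs. As neither the labels nor the methods state a pairing, the numbers were not taken as pairs in the main fit. With the replicate block, 7886 genes changed, 3159 were not restored, 1808 past baseline, 737 new and 192 distinct, and all counts stayed within 1.5 times. By edgeR and DESeq2, 7792 and 7301 genes changed. Depth limits low genes, for which the standard errors were about 0.24.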
